A study of Homo sapiens with 2 samples.

Results

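Shared intergenic peaks are stretches of the genome listed as peaks for both PRMT6 and PARP1, away from the listed start of every gene record and outside every protein-coding gene. They were chosen as PRMT6 peaks on chromosomes 1 to 22 and X that shared 1 bp or more with a PARP1 peak, lay more than 3 kb from the 5′ end of every gene record of any type and touched no protein-coding gene record. The rule found 722 of the 9080 PRMT6 peaks, which covered 281 kb in all. The PARP1 peak that shared most bases with each is called its partner here. The partners were 720 different peaks, and 6 of the 722 met a second PARP1 peak. The rule took 1 start per record, and 5 of the 722 lay within 3 kb of a further start in the RefSeq promoter table, without which 717 remained. The data came from MDA-MB-231, an established human triple-negative breast cancer cell line, for which the labels name neither a treatment nor a genetic change. One genomic DNA library was made with an antibody to PRMT6 and 1 with an antibody to PARP1, so no replicate check exists and no test between conditions was possible. The peaks were deposited as lists with a score, the −log10 of the p-value of the peak caller, and without read counts, so the depth behind a score is unknown. Intervals printed here are 95% exact binomial intervals for shares and order-statistic intervals for medians. Both kinds take each peak as a separate draw and reflect counting error alone.

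PRMT6 is a protein arginine methyltransferase that places asymmetric dimethyl marks on histone H3 arginine residues, and it is best known for repressing transcription. PARP1 is an abundant nuclear enzyme that builds ADP-ribose chains at DNA breaks and also sits at active chromatin in undamaged cells. DNA between genes holds enhancers, insulators and the starts of long non-coding RNAs (lncRNAs), through which transcription factors such as AP-1 and CTCF act on genes at a distance.

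Sequence was at hand for a few of these peaks only, those that overlapped a 300-base RefSeq promoter window of an lncRNA whose listed start lies inside its gene record. There were 4 such peaks, and the windows of 3 are shown because they give the strongest such peaks and the one nearest a clock gene. The windows are from GRCh38.p14, read 5′ to 3′ on the strand of the lncRNA, from 250 bases before to 50 bases after the start. Capitals mark matches to the words searched on both strands.
LOC105370034: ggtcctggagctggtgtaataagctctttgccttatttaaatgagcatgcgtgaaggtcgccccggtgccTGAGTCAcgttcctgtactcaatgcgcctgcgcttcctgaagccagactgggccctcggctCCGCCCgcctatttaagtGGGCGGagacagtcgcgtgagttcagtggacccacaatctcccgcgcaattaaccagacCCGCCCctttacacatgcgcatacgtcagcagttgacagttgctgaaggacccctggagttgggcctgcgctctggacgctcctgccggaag
LOC105370680: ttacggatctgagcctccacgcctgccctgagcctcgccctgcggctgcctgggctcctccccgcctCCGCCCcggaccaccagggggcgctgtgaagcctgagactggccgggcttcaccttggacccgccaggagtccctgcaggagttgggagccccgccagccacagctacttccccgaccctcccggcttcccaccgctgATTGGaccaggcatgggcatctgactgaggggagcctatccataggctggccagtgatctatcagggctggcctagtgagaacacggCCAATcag
BHLHE40-AS1: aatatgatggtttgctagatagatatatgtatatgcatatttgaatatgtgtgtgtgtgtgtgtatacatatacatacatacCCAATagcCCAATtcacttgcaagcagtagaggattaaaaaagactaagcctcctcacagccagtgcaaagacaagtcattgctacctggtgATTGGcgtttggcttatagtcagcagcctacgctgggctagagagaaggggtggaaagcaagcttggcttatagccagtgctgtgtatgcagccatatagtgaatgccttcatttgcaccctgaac
The first window, at chr12:121686885-121687184, lay whole within the peak at chr12:121686835-121687368, whose score was 18.95 in the PRMT6 library and 19.6 in the PARP1 library. It held 1 AP-1 word and 3 GC box words, and 58.7% of its bases were G or C, the same as the median of all 35116 windows of that table. The second window, at chr14:102524570-102524869, lay within a peak with scores of 17.03 for PRMT6 and 13.7 for PARP1 and held a GC box word and a pair of NFY words. The third, at chr3:4906452-4906751 on the minus strand, shared 259 bp with a weak peak, with scores of 4.48 and 5.09, that lay 72.7 kb upstream of the clock regulator gene BHLHE40. It held 3 NFY words and no GC box word. The window of LOC105370866 on chromosome 15 matched no word.

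The words were AP-1 (TGANTCA), held by 7.71% of all windows of that length in the table, GC box (GGGCGG) by 45.0% and NFY (CCAAT) by 34.6%. The words that matched none of the 4 windows were CRE (TGACGTCA, in 1.85% of all windows), E-box (CACGTG, 7.26%), ETS (CCGGAAGT, 4.14%), TEAD (GGAATGT, 3.46%), RUNX (TGTGGTT, 4.27%) and CEBP (TTGCGCAA, 0.151%). A match describes letters, not binding, and 4 windows cannot stand for the 722 peaks.

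To place the intergenic peaks among the chromatin that both proteins shared, all PRMT6 peaks were sorted by gene records. Intergenic peaks made up 17.2% (16.0 to 18.3) of the 4206 shared PRMT6 peaks, against 49.98% for peaks within 3 kb of a protein-coding gene start (called coding promoters here). Overlap with PARP1 was found for 722 of the 2331 intergenic PRMT6 peaks, which is 31.0% (29.1 to 32.9), beside a background of 46.4% for all PRMT6 peaks on these chromosomes. The share was 69.1% at coding promoters, 53.6% at starts of other genes and 35.1% inside coding genes. These counts follow from the rule and describe it.

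The share moved with peak strength, between genes as inside them. Each peak was given a percentile of its score within its own list, because scores of different libraries are not on one scale. For PRMT6 peaks at percentile 80 to 100, 92.8% (88.8 to 95.8) of the 237 intergenic peaks overlapped PARP1, beside 92.1% (90.3 to 93.6) of coding promoter peaks and 89.4% (86.0 to 92.2) of peaks inside coding genes. At percentile 60 to 80 the shares were 74.1%, 71.3% and 64.4%. Below that the intergenic peaks parted from the coding promoters and not from peaks inside coding genes, with 24.3%, 54.3% and 28.0% at percentile 40 to 60 and 9.26%, 31.7% and 9.15% at percentile 0 to 20. The PARP1 list read differently, since its intergenic peaks overlapped PRMT6 less often than its promoter peaks at every strength. Of PARP1 peaks at percentile 80 to 100, 65.0% (60.7 to 69.1) of the intergenic ones and 88.5% (86.4 to 90.4) of the coding promoter ones overlapped PRMT6. The low value was not particular to intergenic peaks, as 69.9% (66.2 to 73.5) of those inside coding genes and 66.4% (58.3 to 74.0) of those at starts of other genes did so.

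**Figure D1:**
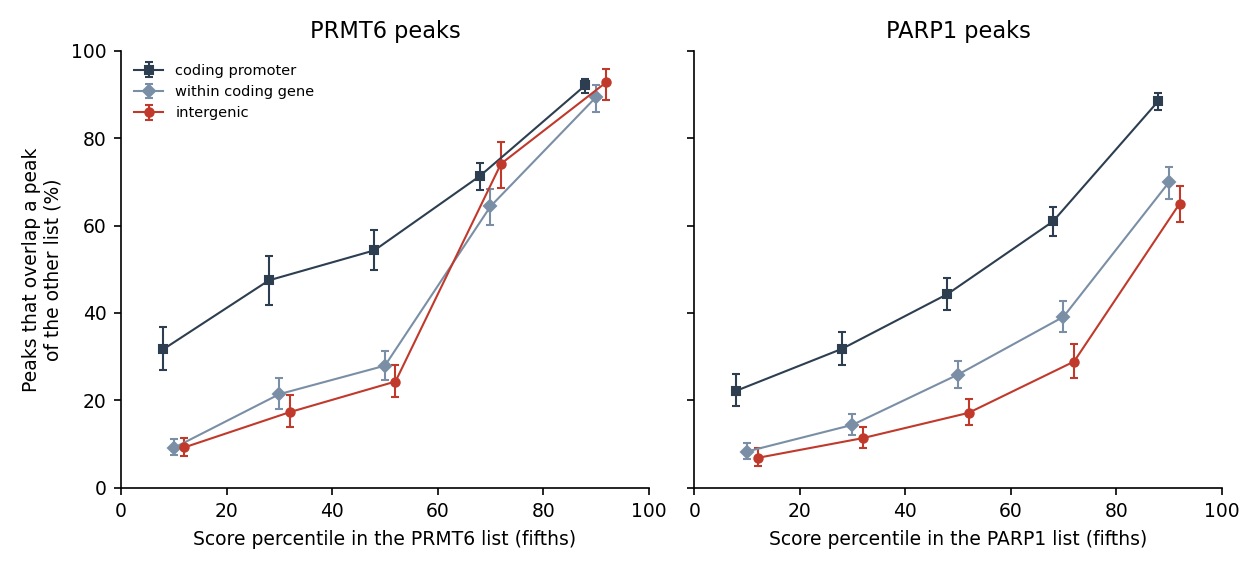
Share of peaks (vertical axis, percent) that overlap a peak of the other list, against the score percentile in their own list (horizontal axis, 5 bins of 20 percentile points, points set slightly apart for clarity), for PRMT6 peaks (left) and PARP1 peaks (right). Bars are 95% exact binomial intervals. In the PRMT6 list the intergenic line meets the promoter line at percentile 60 and above, with 74.1% against 71.3% and 92.8% against 92.1%, and in the PARP1 list it stays below, at 65.0% against 88.5% in the top bin.

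The shared intergenic peaks ranked higher in the PARP1 list than in the PRMT6 list. Their median percentile was 66.5 (quartiles 47.996 to 83.5) for PRMT6 and 78.0 (quartiles 51.2 to 91.5) for the PARP1 partner peaks. The PARP1 percentile was the higher one at 451 of 722 peaks, or 62.5% (58.8 to 66.0), where all shared peaks gave a background of 49.8%. It was the higher one at 44.2% (42.1 to 46.4) of shared coding promoter peaks and at 52.3% (49.3 to 55.2) of those inside coding genes. The median difference, PARP1 minus PRMT6, was 5.92 percentile points (3.95 to 7.77) between genes and -1.63 points (-2.41 to -0.888) at coding promoters.

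The size of that difference depended on how the lists were scaled, and its order among the classes did not. With the longer PARP1 list reduced to its best peaks at the length of the PRMT6 list, the median difference was 2.31 points (1.06 to 4.12) between genes, -2.41 points inside coding genes and -4.33 points at coding promoters. The PARP1 percentile was then the higher one at 55.4% (51.6 to 59.2), 45.0% and 38.4% of peaks in the same order. With ranks taken among shared peaks only, the median difference was 7.39 points (5.52 to 9.40) between genes and -3.68 points at coding promoters. Each protein was seen in 1 library, so an antibody and a library cannot be told apart.

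**Figure D2:**
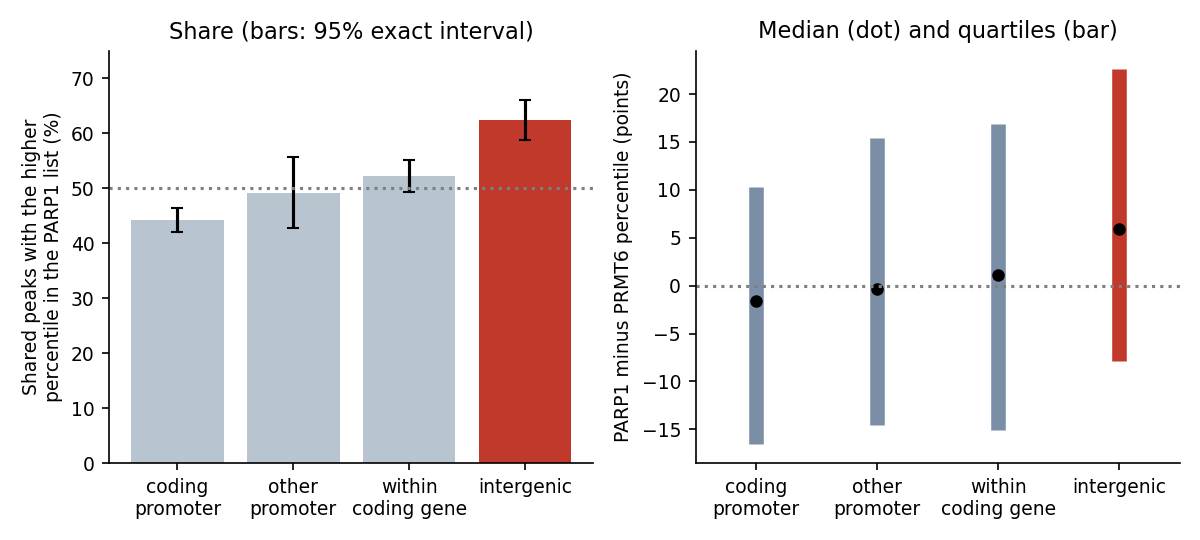
Left, share of shared peaks (vertical axis, percent) whose percentile was higher in the PARP1 list than in the PRMT6 list, by position, with 95% exact binomial intervals and a dotted line at 50%. Right, median (dot) and quartiles (bar) of the PARP1 minus PRMT6 percentile, in percentile points, with a dotted line at 0. The intergenic share of 62.5% and median of 5.92 points stand above those of the other 3 positions.

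The tilt towards PARP1 had its lowest values near genes, but the intervals of the 3 shares overlap. The values by distance are from the full lists only. At 3 to 20 kb from the nearest coding gene start the median difference was 2.23 points, and the PARP1 percentile was the higher one at 56.5% (50.03 to 62.7) of 248 peaks. From 20 to 100 kb the values were 6.62 points and 65.9% (60.1 to 71.3) of 287 peaks, and beyond 100 kb they were 11.5 points and 65.2% (57.9 to 72.0) of 187 peaks. The median PRMT6 percentile was 72.5, 66.9 and 60.6 over the same 3 distances, and the median PARP1 percentile was 79.7, 78.3 and 73.6.

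At the top of the lists, 207 peaks (28.7%) were at or above percentile 90 for PARP1, 109 (15.1%) for PRMT6 and 71 (9.83%) for both. For PARP1 the share was 24.4% of shared coding promoter peaks, 25.4% at starts of other genes and 20.4% inside coding genes. For PRMT6 it was 26.3%, 15.4% and 15.0% in the same order, and for both 14.6%, 9.17% and 8.23%. A strong PARP1 peak over a PRMT6 peak below percentile 50 was found at 25 sites (3.46%) and the opposite at 4 (0.554%). These shares were 0.904% and 1.14% at coding promoters, 2.50% and 1.25% at starts of other genes and 2.19% and 1.05% inside coding genes. Across the 722 sites the scores of the 2 libraries were related with a Spearman rho of 0.44, beside 0.54 over shared coding promoter peaks, 0.42 inside coding genes and 0.38 at starts of other genes. The points of such a comparison share their libraries and are not replicates.

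**Figure D3:**
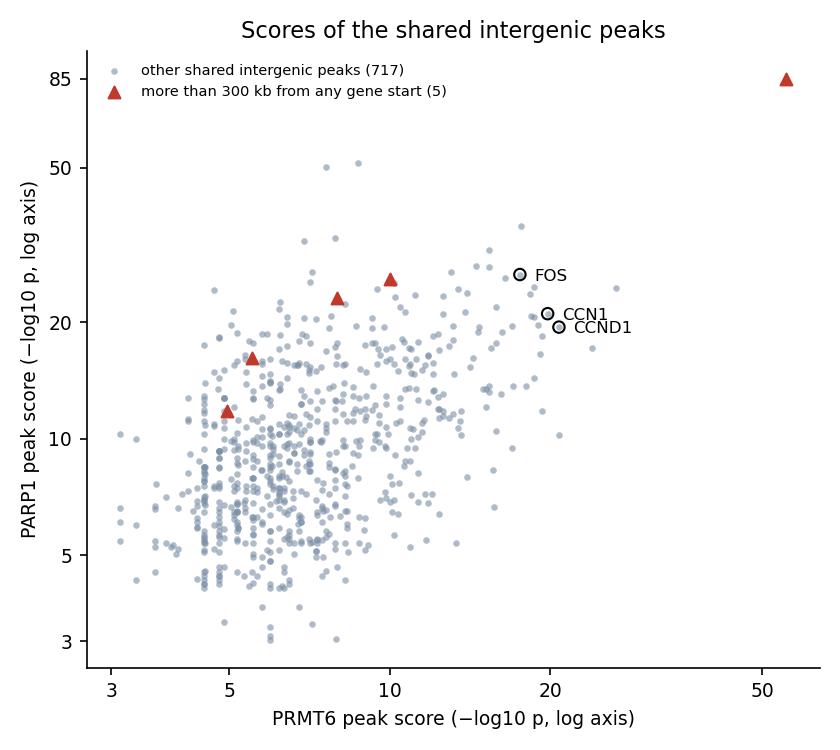
Score of each shared intergenic peak in the PRMT6 library (horizontal axis) and of its PARP1 partner (vertical axis), both as −log10 p on log axes, with 722 points. Triangles are the 5 peaks more than 300 kb from any gene start, and circles mark the strongest peaks nearest FOS, CCN1 and CCND1. The point at 55.5 and 84.97 is the highest of both axes.

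The site with the highest score in both lists was intergenic. The peak at chr3:93470239-93470967 ranked 1 of 9080 in the PRMT6 list, with a score of 55.5, and 1 of 11651 in the PARP1 list, with a score of 84.97. It lay in a stretch at or beside the centromere, between EPHA3, an ephrin receptor gene, and PROS1, which encodes the anticoagulant protein S. The nearest start of any gene record was 373 kb away. Such stretches hold repeated sequence, unique placement of reads was not tested and no control library is known. The rank therefore describes the lists and does not show binding.

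Of the other sites with the best mean percentile over both lists, 3 are given in full. The peak at chr14:75258796-75259419, 19.4 kb upstream of the AP-1 gene FOS, scored 17.5 for PRMT6 and 26.5 for PARP1 and ranked 218 and 88. The peak at chr1:85607076-85607669, 26.3 kb downstream of the start of CCN1, which encodes a matricellular protein, scored 19.8 and 21.0 and ranked 132 and 207. The peak at chr11:69497149-69497694, 143 kb upstream of CCND1, the cyclin D1 gene, scored 20.8 and 19.4 and ranked 116 and 295. All 3 sites stood in the top 300 of both lists, as did 13 of the 722 in all.

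Further sites of this group lay upstream of LTBP2, which encodes a latent TGF-β binding protein (7.43 kb, ranks 166 and 115), of the homeobox gene ONECUT3 (5.41 kb, ranks 166 and 226) and of CUX1, another homeobox gene (86.1 kb, ranks 267 and 91). A site between the forkhead genes FOXF2 and FOXC1 ranked 183 and 137. A site between LYZL2 and the zinc finger gene ZNF438 ranked 214 and 27, and a site between LOC124907776 and SLC1A4, an amino acid transporter gene, ranked 54 and 120. None of these 9 sites beyond the first lay more than 100 kb from a gene start of any type.

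Sites where the proteins differed most were weak in one of the lists. The PARP1 percentile was furthest above that of PRMT6 near COPS8, a COP9 signalosome subunit gene, at 81.5 points. Among the 5 sites with the largest such differences were others near EML4, a microtubule-associated protein gene (78.7 points), RIPK1, a death receptor kinase gene (76.5 points), and DUSP1, a MAP kinase phosphatase gene (74.8 points). The PRMT6 percentile was furthest above that of PARP1 at a site 4.25 kb upstream of SPDEF, an epithelial ETS factor gene, with scores of 7.93 for PRMT6 and 3.04 for PARP1 and a difference of -78.7 points. Sites nearest KLF14 (-72.1), MAP1LC3B2 (-71.2), PHLDA2 (-66.4) and JARID2 (-66.3 points) came next. In the lower of the lists the scores of these sites ran from 3.04 to 5.37, so the differences rest on weak peaks.

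The 5 peaks farthest from any gene start all lay in long stretches without coding genes at or beside centromeres. Whether they fell within the centromeres themselves was not tested. Besides the site on chromosome 3, they were at chr1:125183568-125184086, 3664 kb from the nearest start, at chr17:25919973-25920446 and chr17:26603853-26604140, 1062 and 378 kb away, and at chr5:49658395-49658730, 785 kb away. Their PARP1 scores ran from 11.8 to 84.97, at percentiles of 88.6 and above, while their PRMT6 scores ran from 4.95 to 55.5. The next farthest peak was 190 kb from a start. Such stretches hold repeated sequence, and whether reads were placed there uniquely was not tested, since the lists do not record it.

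**Figure D4:**
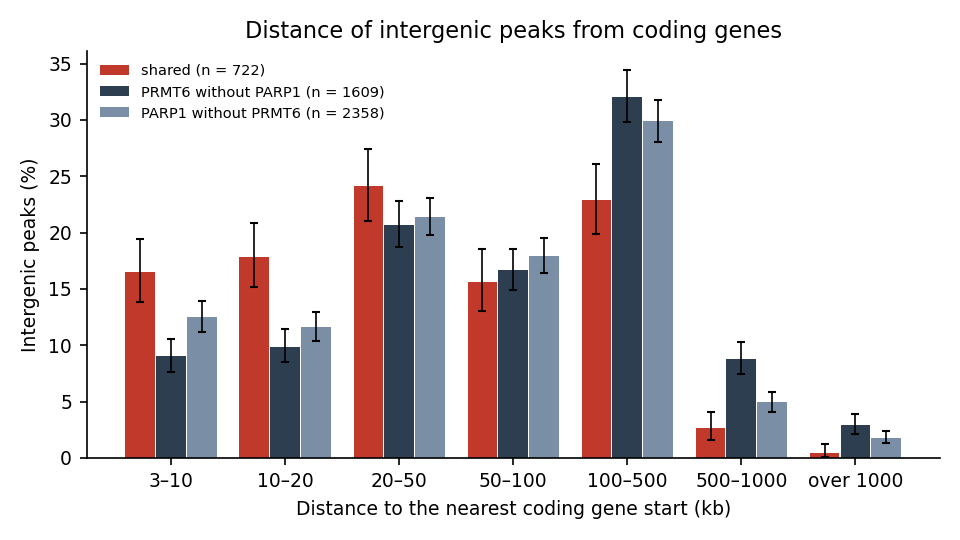
Share of intergenic peaks (vertical axis, percent) by distance to the nearest coding gene start (horizontal axis, kb, bins of unequal width), for shared peaks, PRMT6 peaks without PARP1 and PARP1 peaks without PRMT6. Bars carry 95% exact binomial intervals. Shared peaks were more often within 20 kb and less often beyond 100 kb, 25.9% against 43.8% and 36.6%.

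Shared intergenic peaks lay nearer to coding genes than intergenic peaks of one protein alone. The median distance to the nearest coding gene start was 37.5 kb (33.1 to 42.8) for shared peaks, 76.9 kb (69.7 to 84.2) for PRMT6 peaks without PARP1 and 59.7 kb (54.8 to 64.6) for PARP1 peaks without PRMT6. Beyond 100 kb lay 187 shared peaks, or 25.9% (22.7 to 29.3), against 43.8% (41.3 to 46.2) and 36.6% (34.6 to 38.5).

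Peak strength moved with this difference. Among PRMT6 peaks at or above percentile 60 the median was 32.6 kb (28.3 to 39.2) for the 435 shared peaks and 30.1 kb (23.4 to 51.7) for the 92 without PARP1, so the difference was not seen there. Below percentile 60 it was 45.4 kb (36.1 to 56.4) for the 287 shared peaks and 79.6 kb (73.0 to 89.1) for the 1517 others. In the PARP1 list it was seen in both ranges, with 39.1 kb (33.3 to 45.4) against 52.9 kb (45.7 to 59.3) at or above percentile 60 and 37.2 kb against 62.7 kb below it.

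The peaks were not placed evenly around the nearest coding gene, and the other intergenic sets shared most of that imbalance. Of the 714 peaks whose nearest coding gene has a known strand, 485 lay upstream of it, which is 67.9% (64.4 to 71.3), and 229 lay past its 3′ end. The share upstream was 64.2% (61.8 to 66.6) for PRMT6 peaks without PARP1 and 64.1% (62.1 to 66.1) for PARP1 peaks without PRMT6. Gene bodies are barred by the rule, which limits the downstream side.

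At the edge of the 3 kb limit, the nearest 3 peaks outside it were at 3011 bp from the pseudogene UQCRHP2, with scores of 7.91 for PRMT6 and 6.71 for PARP1, at 3074 bp from the lncRNA gene LOC105372672 and at 3118 bp from the lncRNA gene LOC124909404. Shared peaks just inside it, which were left out, were at 2988 bp from the pseudogene RNU6-746P, with scores of 5.17 and 5.48, at 2976 bp from the pseudogene LOC441784 and at 2968 bp from the lncRNA gene LOC124904493.

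To ask whether the genes beside these sites were themselves occupied, the promoter of the nearest coding gene was looked up in both lists. Of 714 peaks, 129 had a nearest coding gene with promoter peaks of both proteins, or 18.1% (15.3 to 21.1), beside a background of 13.4% of all 19670 coding genes with a known strand. The share was 12.2% (10.7 to 13.96) for PRMT6 intergenic peaks without PARP1 and 13.8% (12.5 to 15.3) for PARP1 intergenic peaks without PRMT6. Counting each of the 622 genes once gave 16.9% (14.02 to 20.1), whose interval overlaps that of the PARP1 set counted the same way, 14.02% (12.4 to 15.8).

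Over all distances, each protein was listed at the nearest promoter more often than beside the other intergenic sets, which lay farther from genes. A PARP1 promoter peak was listed for the nearest gene of 230 shared peaks, or 32.2% (28.8 to 35.8), against 22.5% of all coding genes, 23.6% (21.5 to 25.7) beside PRMT6 peaks without PARP1 and 26.1% (24.3 to 27.9) beside PARP1 peaks without PRMT6. A PRMT6 promoter peak was listed for 23.9% (20.9 to 27.3), against 18.3% of all coding genes, 16.0% (14.2 to 17.8) and 17.9% (16.4 to 19.5) beside the same 2 sets. Counting each gene once gave 30.1% (26.5 to 33.8) for PARP1 and 22.3% (19.1 to 25.8) for PRMT6, and both intervals then overlap those beside PARP1 peaks without PRMT6, 25.3% (23.3 to 27.5) and 18.6% (16.7 to 20.5). In 442 cases, or 61.9% (58.2 to 65.5), the nearest promoter held neither protein, against 72.6% of all coding genes. The share was 72.7% beside PRMT6 peaks without PARP1 and 69.9% beside PARP1 peaks without PRMT6. At 3 to 20 kb from the gene start, shared peaks and PARP1 peaks without PRMT6 had overlapping intervals. For PARP1 they were 30.5% (24.8 to 36.7) and 28.9% (25.2 to 32.8), and for PRMT6 26.4% (21.0 to 32.4) and 22.2% (18.8 to 25.8). At 20 to 100 kb the PARP1 values were 37.3% (31.7 to 43.2) and 28.0% (25.1 to 31.0). The PRMT6 values there were 22.9% (18.1 to 28.2) and 19.7% (17.1 to 22.4). Beyond 100 kb the PARP1 values were 26.6% (20.4 to 33.6) and 22.1% (19.4 to 25.1). The PRMT6 values beyond 100 kb were 22.3% (16.5 to 29.0) and 13.2% (11.0 to 15.6), whose intervals do not overlap. The part of distance in these differences was not tested. Nearness in the genome does not show which gene a site acts on.

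**Figure D5:**
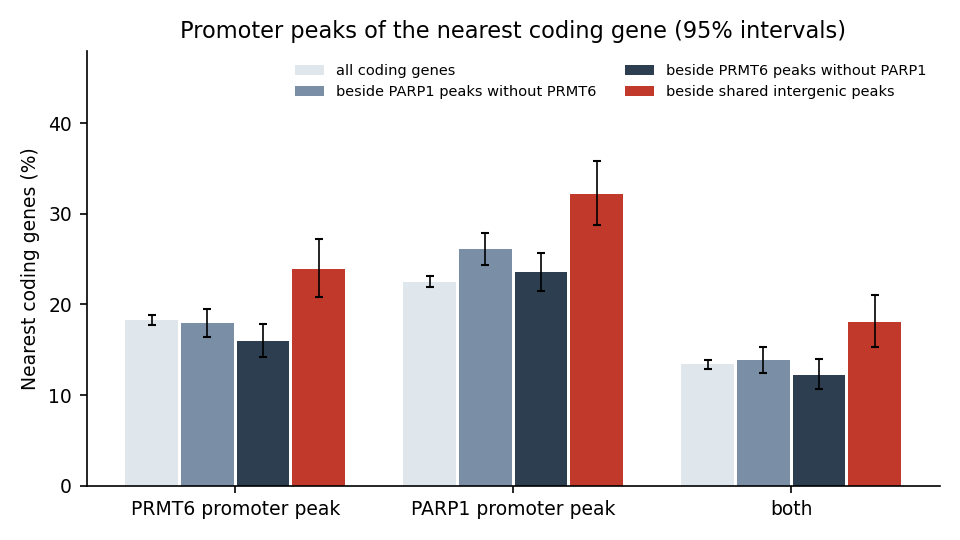
Share of nearest coding genes (vertical axis, percent) with a PRMT6 peak, a PARP1 peak or both within 3 kb of their start, for all coding genes and beside the 3 sets of intergenic peaks. Bars carry 95% exact binomial intervals. The values beside shared intergenic peaks, 23.9%, 32.2% and 18.1%, are the highest of each group over all distances, and the sets differ in their distance from genes.

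Most genes had a single shared peak as neighbor. The 722 peaks named 630 nearest coding genes, of which 561 had 1 peak, 53 had 2, 9 had 3 and 7 had 4 or more, of which 6 are described here. The genes below were picked for their counts. TGFB2, the gene of the cytokine TGF-β2, had 4 peaks at 135 to 361 kb past its start, of which the one at chr1:218496507-218496869 ranked 1268 for PRMT6 and 121 for PARP1, and no intergenic peak of one protein alone.

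HIF1A, the gene of the oxygen-regulated subunit of HIF-1, had 4 peaks at 32.5 to 141 kb upstream with PRMT6 ranks of 198, 322, 115 and 2902 and PARP1 ranks of 859, 5388, 1990 and 3381, so that the PRMT6 percentile was the higher one at 3 of the 4. DUSP1 had 4 peaks at 5.53 to 56.2 kb past its start, and at 3 of them the PARP1 percentile was the higher one, as at chr5:172765261-172765668 with ranks of 5567 for PRMT6 and 282 for PARP1. ANO10, TMEM170B and USP12 had 4 peaks each as well. Of these 6 genes, only HIF1A had promoter peaks of both proteins.

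Peaks seldom lay close to each other. The nearest other shared intergenic peak was a median of 534 kb away, and 83 peaks (11.5%) stood in 40 runs with gaps of at most 20 kb, against 12.4% of all intergenic PRMT6 peaks, a set that is larger, and 6.59% (5.42 to 7.91) of those without PARP1. Of these runs 3 held 3 peaks. One, at chr14:61553786-61565092, spanned 11.3 kb over the lncRNA LINC01303 between PRKCH, a protein kinase C gene, and HIF1A. The others lay on chromosome 2, between TEX44 and PTMA, the prothymosin alpha gene, and between KIF3C, a kinesin gene, and RAB10, a membrane traffic GTPase gene. With gaps of at most 10 kb the share was 7.62% against 3.23% of those without PARP1, and with at most 50 kb it was 19.3% against 13.0%.

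The peaks were not spread over the chromosomes as other intergenic PRMT6 peaks were. On chromosome 19, 43 of 79 intergenic PRMT6 peaks overlapped PARP1 (54.4%, 42.8 to 65.7) and on chromosome 17 the count was 43 of 90 (47.8%, 37.1 to 58.6). On chromosome 4 it was 12 of 93 (12.9%, 6.85 to 21.5). Those intervals leave out the share over all chromosomes, 31.0%, and were picked from 23 chromosomes for their values. The intervals of chromosomes 8 (23.1%, 16.4 to 30.9) and 9 (21.4%, 13.8 to 30.9) leave it out as well. The part of peak strength in these shares was not tested.

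Non-coding genes were not found more often under these peaks. A non-coding gene record covered 157 of the 722, or 21.7% (18.8 to 24.9), beside a background of 24.2% of all intergenic PRMT6 peaks. It was an lncRNA in 146 cases and a pseudogene in 11. The 162 records met 1 peak each except 7 that met 2, among them LINC01303, upstream of HIF1A, and ZMIZ1-AS1, an antisense lncRNA of the coactivator gene ZMIZ1. Over ZMIZ1-AS1 the peak at chr10:78972579-78973026 ranked 343 for PRMT6 and 55 for PARP1.

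In all, 9 gene lists of 267 genes were compared with the nearest coding genes within 100 kb. Beside 26 listed genes fell 29 peaks (4.02%, 2.71 to 5.72). That pooled share was not computed for the other intergenic peaks, so it has no background here. Immediate-early and AP-1 factor genes, some of which growth signals switch on within minutes, made up the largest group, with 9 peaks beside 6 of 26 genes. The lists were chosen with earlier results of these data known. This was 1.25% (0.572 to 2.35) of the shared peaks, beside a background of 0.472% of all intergenic PRMT6 peaks, 0.124% (0.0151 to 0.448) of those without PARP1 and 0.721% (0.421 to 1.15) of PARP1 peaks without PRMT6. The intervals of the shared peaks and of the PARP1 peaks overlap. Of the 9 peaks, 3 belong to 1 gene. For every list, only peaks within 100 kb of a coding gene start could count. Beyond it lay 25.9% of shared peaks, 43.8% of PRMT6 peaks without PARP1 and 36.6% of PARP1 peaks without PRMT6. The parts of distance and of peak strength in the counts were not tested.

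Of this group, FOS had the strongest site, given above. MAFK, the gene of a small Maf factor, had a site 9.59 kb upstream that ranked 579 for PRMT6 and 141 for PARP1. IER3, a stress-response gene, had a site 37.0 kb upstream over the lncRNA HCG20 with ranks of 1066 and 606. KLF2, a Krüppel-like factor gene, had sites 45.2 kb upstream and 5.66 and 13.97 kb past its start, with PRMT6 ranks of 3163, 612 and 2272 and PARP1 ranks of 781, 1501 and 654. JUN had a site 64.8 kb upstream, over its divergent transcript JUN-DT, with ranks of 1396 and 1443, and a site 28.3 kb past its start, with ranks of 2418 and 8153. The weakest, beside IER2, ranked 5562 and 5461.

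The core clock list, which holds clock genes that the study followed, gave 4 peaks beside 4 of 26 genes, 0.554% (0.151 to 1.41) beside a background of 0.257%. PER3, the main clock target in the paper, was not among these 4 genes. The site 3.82 kb upstream of PER1, a repressor gene of the clock, scored 13.1 for PRMT6 and 19.5 for PARP1 and ranked 535 and 288. With 1 start per record, no peak of either protein was listed within 3 kb of the PER1 start. The paper reports both proteins at the PER1 promoter, from its sequencing profiles and from quantitative ChIP and re-ChIP. Whether its promoter site is the one at 3.82 kb was not tested. The site 60005 bp upstream of BMAL1, which encodes the activator partner of CLOCK, ranked 3935 for PRMT6 and 761 for PARP1. CSNK1D, a clock kinase gene, and BHLHE40 had sites with ranks of 1696 and 8910 and of 6841 and 8920. Of the 4 sites only that of PER1 stood at or above percentile 90 in both lists.

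Mesenchymal and invasion genes gave 7 peaks beside 7 of 37 genes. This was 0.970% (0.391 to 1.99) beside a background of 0.686%, which the interval holds. After CCN1 came ITGB1, the β1 integrin gene, with ranks of 773 and 1904, AMOTL2, a junction protein gene, with 3373 and 450, SNAI1, with 2895 and 3013, and ZEB1, with 1986 and 4289, the last 2 being genes of repressors of epithelial identity. VIM, the vimentin gene, and TGFBI, a matrix protein gene, had weaker sites, with PARP1 ranks of 10178 and 8793.

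The other lists gave few peaks. Luminal and epithelial genes had 3, beside CLDN4 (a tight junction gene, ranks 822 and 544), ELF3 (an epithelial ETS factor gene, ranks 2348 and 698) and SPDEF, which is 0.416% beside a background of 0.129%. Wnt signaling genes had 2, beside the receptor gene FZD2 (ranks 629 and 1046) and the inhibitor gene DKK1 (ranks 2287 and 3800), 0.277% beside 0.257%. Oncogenes and cell cycle genes had 2, beside the cyclin E1 gene CCNE1 (ranks 2235 and 4350) and the receptor gene MET (ranks 4835 and 7686), 0.277% beside 0.215%.

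DNA repair genes had 1, a strong site 4.08 kb upstream of ERCC1, a nucleotide excision repair gene, with scores of 15.8 for PRMT6 and 21.9 for PARP1 and ranks of 315 and 175, and 0.139% stood beside a background of 0.0858%. Inflammatory genes had 1, beside the chemokine gene CCL20 (ranks 4689 and 544), 0.139% beside 0.215%. None of the 9 genes of PRMT6, PARP1 and the CRL4B complex had a shared intergenic peak as its neighbor, and 0 of 722 allows a share of up to 0.510%. For these 6 lists the intervals of the shared peaks hold the background.

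The pairs of peaks overlapped about as closely as in the other classes of shared peaks, and some overlap is set by the rule. The PRMT6 peaks had a median width of 355 bp and their PARP1 partners of 333 bp. Their centers lay a median of 54.3 bp (50 to 61.5) apart, and 619 peaks (85.7%) had at least 50% of their length under the partner. In the other 3 classes the median offset ran from 53 to 60 bp and the share from 82.9% to 86.1%. The smallest width that the caller gave, 288 bp, was found for 224 shared peaks (31.0%) but for 87.2% (85.5 to 88.8) of the 1609 intergenic PRMT6 peaks without PARP1. Without peaks of the smallest width in either list, 64.8% of intergenic PRMT6 peaks overlapped PARP1 in place of 31.0%.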

How the data were processed

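One PRMT6 and 1 PARP1 library of MDA-MB-231 cells were profiled. The methods of the study and the labels name CUT&Tag, and the labels also describe adaptor ligation of precipitated DNA, so the chemistry is uncertain. The authors deposited 1 peak list per library, called with MACS, with a score that is the −log10 of the caller's p-value and is not corrected for depth. The submitters' processing notes list CASAVA 1.4, Bowtie 0.12.8, MACS, MACS2 and hg19. The thresholds, the treatment of duplicates and any control library are not given in the sources used here. Positions fit GRCh38: 55 PRMT6 peaks on 7 chromosomes end beyond the GRCh37 chromosome, and 30.2% of PRMT6 peaks lie within 1 kb of a GRCh38 coding gene start against 4.04% for GRCh37. Starts were read as BED positions and are printed counted from 1.

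The 59094 RefSeq gene records of GRCh38.p14 gave positions, and their strands came from RefSeq sequence tables (28752) or GENCODE names (18949). For the 11393 records without a known strand, the farther end was taken as the start. Overlap (at least 1 bp, closed intervals), mid-rank percentiles within each full list, exact binomial intervals and order-statistic intervals were computed with Python 3.11.15, pandas 2.3.3 and scipy 1.17.1. The count of overlapping peaks was checked with bedtools 2.31.1 (4211 by both), and the rule was tested on 800 simulated peaks, all of which were placed as made.

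Samples were grouped by the antibody in the labels. The peaks, gene lists and words were chosen with earlier results of these data known. Peaks were named by a rule: the 10 best by mean percentile, the 5 with the largest percentile difference each way, the 5 farthest from any start, runs of at least 3 peaks within 20 kb, up to 4 peaks per gene list by mean percentile, and the 3 nearest each side of the 3 kb limit. Peaks outside the rule, among them the further AP-1 and mesenchymal sites, are named for completeness of a list or were picked after their values were seen. Some loci are not reported here one by one. No genome of the peaks' build was used here, so base composition and words within the peaks were not analysed.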

Additional observations from a re-analysis of the deposited data

How the results depend on the processing

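Of 58 alternative values, 33 stayed within the 95% interval of the value reported and 25 moved beyond it. Shares, percentiles and distances cannot be negative, so their direction was not put to the test. The percentile difference of the shared intergenic peaks kept its sign in each setting. Inside coding genes its median went from 1.10 to -2.41 points with the PARP1 list at the length of the PRMT6 list. Shared intergenic peaks as a share of all shared peaks (17.2%) moved to 16.0% with the higher-scoring 50% of each list, 19.9% with a limit of 1 kb, 10.7% with 10 kb, 22.9% when only coding gene starts were barred, 15.3% without peaks of the smallest width, 16.0% when both ends of records without a known strand counted as starts, and 13.4% when records of any gene were barred. The share of intergenic PRMT6 peaks that overlapped PARP1 (31.0%) moved to 25.9% with a reciprocal overlap of 50%, 54.4% with the higher-scoring 50%, 27.3% with 10 kb, 34.6% with coding starts only and 64.8% without the smallest width, and that of PARP1 peaks (23.6%) to 19.6% and 31.0% in the first 2 settings. The median PRMT6 percentile (66.5) moved to 70.2 with reciprocal overlap, 78.5 with the higher-scoring 50% and 78.5 without the smallest width. The median distance to any gene start (13.1 kb) moved to 11.3 kb with 1 kb, 21.6 kb with 10 kb and 8.81 kb with coding starts only, which also moved the share under non-coding records (21.7%) to 34.4%. The causes were not tested beyond what each setting removes. The percentile difference of 5.92 points moved to 2.31 points with the PARP1 list at the length of the PRMT6 list, a setting added after the data were seen. Runs held 7.62% and 19.3% of peaks at 10 and 50 kb in place of 11.5% at 20 kb. Listed genes flanked 9.97% of peaks at any distance in place of 4.02% within 100 kb, and neither pooled share has a background here.

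No paired analysis was possible because there was only 1 library for PRMT6 and 1 for PARP1, which also left no replicate to leave out. Sequence within 100 bp of the peak centers was planned and not run. The depth is unknown, so a peak missing from a list was not shown to be missing from the cells.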
